A study of Mus musculus with 6 samples.

Results

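The enzymes that carry squalene to cholesterol were examined in mouse liver, as the 9 genes Sqle, Lss, Cyp51, Tm7sf2, Msmo1, Nsdhl, Ebp, Sc5d and Dhcr7. They were chosen as consecutive steps of a textbook pathway, by the symbol that the array annotation assigns to a probe set, where Msmo1 is listed under its older symbol Sc4mol. All 9 were found, with 112 probe sets that name 1 gene, of 16277 genes and 229581 probe sets in all. The samples are 3 arrays of liver from SRSF3HKO mice, in which the splicing factor gene Srsf3 is knocked out in hepatocytes, and 3 arrays from WT littermates of the same age. Livers of both genotypes were taken at 1 month of age from mice that received no treatment. The labels do not give the Cre driver, the floxed allele or the deleted exons, nor whether each WT array comes from a different mouse, so the p-values measure the spread between these samples only. Expression was measured on an Affymetrix mouse exon array, which reads several parts of each transcript with separate probe sets.

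Squalene is the last open-chain intermediate of cholesterol synthesis. Squalene epoxidase (Sqle) adds an oxygen, lanosterol synthase (Lss) folds the chain into the first sterol, and the remaining enzymes strip methyl groups and move or reduce double bonds until cholesterol is left. Liver is a main site of this synthesis, and the transcription factor SREBP2, product of Srebf2, is known to drive the genes of the pathway when membranes of the endoplasmic reticulum are short of sterol.

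The arrays had median intensities of 75.3 to 89.6, and their number, 6, limits the precision. A gene's level is the median over its probe sets of log2(intensity + 16), which understates the change of dim genes, and its intensity is the same median with the transformation undone. A gene was tested if its mean over the 6 arrays lay above 5.36 on this scale, a detection floor set by receptor genes that liver is not known to express, and 11665 genes did so. Changes are SRSF3HKO minus WT on the log2 scale, with the SE and the adjusted p of limma over all genes tested, and a gene is called lower or higher at an adjusted p under 0.05. Srsf3 itself had a gene-level change of 0.26 ± 0.31 over its 14 probe sets (limma adjusted p = 0.625), and the part of the gene that was deleted is not given in the labels, so this level checks nothing about them.

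Hepatocyte markers were at summed intensities of 76430 to 82010 in WT and 57000 to 75090 in SRSF3HKO over 8 measured genes, and 7 of the 8 had a negative change. Cyp2f2, a cytochrome P450 gene, was the called marker, at -3.45 ± 0.89 (limma adjusted p = 0.0430), while albumin (Alb) had a change of -0.02 ± 0.14 (limma adjusted p = 0.930). Cyp2f2 intensities were 6086, 6321 and 7831 in WT and 255, 230 and 3508 in SRSF3HKO. Without Cyp2f2 the hepatocyte sums of WT and SRSF3HKO would overlap. The 7 macrophage markers summed to 2591 to 2976 in WT and to 3038 to 18610 in SRSF3HKO, with the highest value in SRSF3HKO replicate 1. Marco was the called gene among them, higher in SRSF3HKO (limma adjusted p = 0.0449). The markers were mixed on SRSF3HKO replicates 2 and 3. There Adgre1, Clec4f and Csf1r lay below every WT array, and Vsig4, Cd68 and Marco lay above every WT array. Cd5l lay below all WT arrays on replicate 2 and above them on replicate 3. Cholangiocyte markers summed to 506 to 750 in WT and to 855 to 3031 in SRSF3HKO, again highest in replicate 1, and 1 of these 7 genes lay below the floor on every array. Most of each SRSF3HKO sum came from Spp1 (2699, 615 and 592, against 288 to 395 in WT), while Krt19 and Sox9 overlapped between the groups. Stellate cell markers (3052 to 3917 and 3533 to 6128), endothelial markers (2052 to 3094 and 1177 to 2878), erythroid markers (3007 to 10710 and 708 to 9839), neutrophil markers (64.8 to 119 and 79.9 to 292) and lymphocyte markers (115 to 148 and 68.3 to 168) overlapped between WT and SRSF3HKO. Single genes of these lists were called lower, without overlap between the groups. They were the erythroid gene Alas2 (-2.35 ± 0.50, limma adjusted p = 0.0228) and the endothelial gene Kdr (-0.87 ± 0.23, limma adjusted p = 0.0450). Most of the erythroid sum on each array came from Hbb-b1, which overlapped between the groups. Y-linked genes were above the floor on WT replicates 1 and 2 and SRSF3HKO replicate 3 only. In bulk liver RNA, fewer hepatocytes and less RNA per hepatocyte cannot be told apart.

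Transcripts of this enzyme series were lower in SRSF3HKO livers at almost every step. Of the 9 genes 8 fell and none rose, against 5.05% of all genes tested that were called lower and 11.9% called in either direction. The same 8 were at least 2-fold lower, against 3.68% of all genes tested that were called lower and reached this fold. Lss, at the ring-closing step, was the gene that did not pass (limma adjusted p = 0.261). For these 8 genes every SRSF3HKO array lay below every WT array, against 14% of all genes tested, and 35.7% of all genes tested had groups that did not overlap in either direction. The median change over the 9 genes was -2.19, beside 0.08 over all genes tested. The largest falls were at the consecutive enzymes Cyp51 and Tm7sf2, which were 9.38-fold and 8.08-fold lower, and the smallest fall that passed was that of Ebp, at 2.04-fold.

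**Figure D1:**
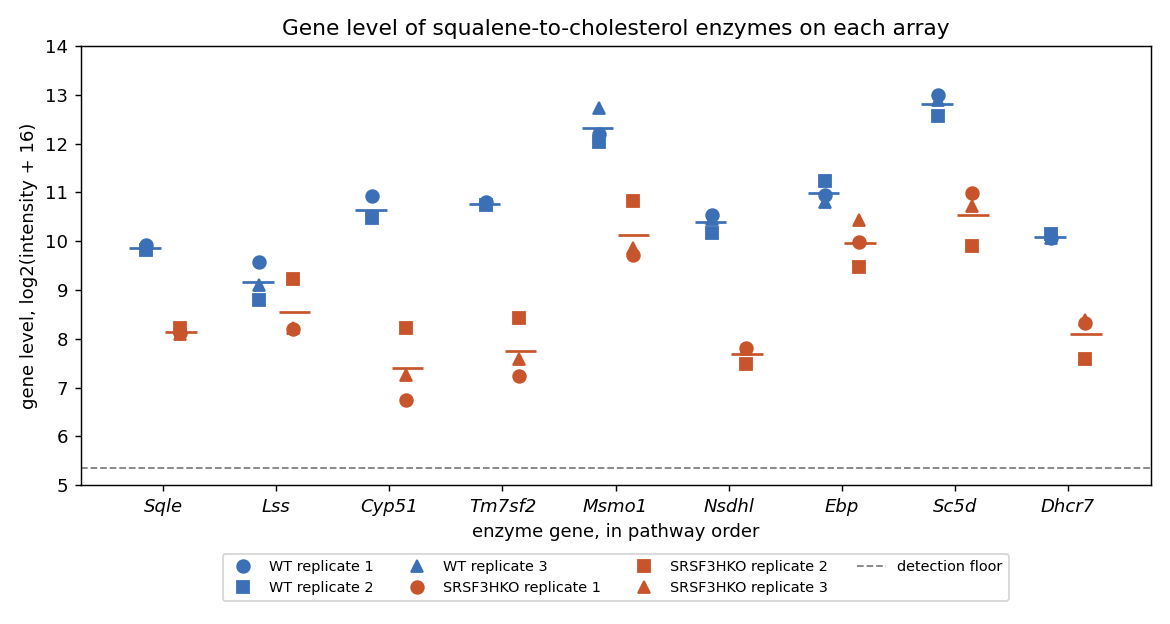
Gene level of each enzyme, as log2(intensity + 16) on the vertical axis, on each of 3 WT (blue) and 3 SRSF3HKO (orange) arrays, with the symbol giving the replicate and a short line giving the group mean. The groups lie apart for every gene but Lss, where SRSF3HKO replicate 2 lies among the WT arrays, and all values lie above the detection floor of 5.36 (dashed line).

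Sqle, which adds the oxygen that allows the ring to close and is a rate-limiting step of the later pathway, had intensities of 952, 885 and 904 in WT and of 264, 283 and 258 in SRSF3HKO. Both groups were tight, and the lowest WT array lay 1.59 log2 units above the highest SRSF3HKO array. The change was -1.71 ± 0.17 (limma adjusted p = 0.00162), a 3.27-fold fall. All 14 probe sets of Sqle were tested and all 14 were called lower, with a median change of -1.51 and the largest at -1.93.

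Lss, which cyclises the epoxide to lanosterol, had intensities of 741, 427 and 536 in WT and of 278, 582 and 282 in SRSF3HKO. SRSF3HKO replicate 2 stood above WT replicates 2 and 3, while the other SRSF3HKO arrays were below all WT arrays. The change was -0.61 ± 0.33, with a 95% interval from -1.36 to 0.14. None of its 23 probe sets was called by limma, 4 had an unadjusted p under 0.05, and all 23 had a negative change, from -1.26 to -0.25. Without SRSF3HKO replicate 2 the change of Lss was -0.95 and passed (limma adjusted p = 0.0311). With array weights, which count deviating arrays less, it was -0.91 and passed too (limma adjusted p = 0.0483).

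Cyp51, the cytochrome P450 that removes a methyl group of lanosterol, fell from intensities of 1935, 1414 and 1441 in WT to 91.8, 282 and 138 in SRSF3HKO. The SRSF3HKO arrays differed from one another by up to 1.47 log2 units, more than the WT arrays (0.45), yet stayed at least 2.26 log2 units below WT. The change was -3.23 ± 0.36 (limma adjusted p = 0.00233). All 13 probe sets were called lower, the largest change being -3.86 for probe set 4384464 and the smallest -1.76 for probe set 4882829.

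Tm7sf2 codes for a sterol reductase that removes the double bond left by Cyp51. Its intensities were 1775, 1686 and 1715 in WT and 135, 329 and 176 in SRSF3HKO, so that the WT arrays spanned 0.07 and the SRSF3HKO arrays 1.19 log2 units. The change was -3.01 ± 0.30 (limma adjusted p = 0.00162). Of 15 probe sets 12 were bright enough to test and all 12 were called lower, from -3.82 to -2.58. The mean of the other 3 over the 6 arrays lay below the floor for probe sets, 5.64.

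Msmo1 and Nsdhl act in turn on the remaining methyl groups, as an oxidase and a dehydrogenase. Msmo1 intensities were 4706, 4197 and 6728 in WT and 825, 1798 and 907 in SRSF3HKO, with SRSF3HKO replicate 2 above the other replicates of its group. It fell by 2.19 ± 0.32 on the log2 scale (limma adjusted p = 0.0068), and all 8 probe sets were called lower, from -2.89 to -1.78. Nsdhl intensities were 1467, 1136 and 1384 in WT and 210, 164 and 205 in SRSF3HKO, and here SRSF3HKO replicate 2 was the lowest. It fell by 2.69 ± 0.20 (limma adjusted p = 5.33e-04), the lowest adjusted p among the 9 genes, and 10 of its 11 probe sets were called lower.

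Ebp, the isomerase that shifts a double bond within the ring, changed least among the genes that passed. Its intensities were 1969, 2379 and 1773 in WT and 1000, 696 and 1374 in SRSF3HKO, and the gap between the groups was 0.36 log2 units. The change was -1.03 ± 0.26 (limma adjusted p = 0.0427). Of 8 tested probe sets 5 were called lower, with changes from -1.58 to -0.87 over all 8, and in all 8 the groups did not overlap. The call of Ebp was lost when WT replicate 1, 2 or 3 or SRSF3HKO replicate 1 was left out (limma adjusted p = 0.137, 0.160, 0.0998 and 0.0690). It also ended with quantile normalization, median centring, no filter on low values, or adjustment for the Y-linked signal (limma adjusted p = 0.0540, 0.0505, 0.0541 and 0.0701), at changes of -1.26 to -0.78 over all alternatives.

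Sc5d, a desaturase, and Dhcr7, the reductase whose loss causes Smith-Lemli-Opitz syndrome, stand at the end of the series. Sc5d intensities were 8095, 6053 and 7636 in WT and 1999, 935 and 1680 in SRSF3HKO. It fell by 2.29 ± 0.29 (limma adjusted p = 0.00372), with all 9 probe sets called lower, from -3.04 to -1.78. Dhcr7 intensities were 1059, 1113 and 1053 in WT and 303, 177 and 318 in SRSF3HKO. It fell by 1.99 ± 0.24 (limma adjusted p = 0.0034), and 9 of 10 probe sets were called lower. In both genes SRSF3HKO replicate 2 was the lowest array.

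Sizes of change differed among the 9 genes. Of 36 pairs of genes, 12 had 95% intervals of the change that did not overlap. These were 6 pairs of Lss with Cyp51, Tm7sf2, Msmo1, Nsdhl, Sc5d and Dhcr7, and the pairs of Sqle and of Ebp with Cyp51, Tm7sf2 and Nsdhl. The remaining 24 pairs were not told apart in this way. All changes come from the same 6 arrays, so the intervals are not independent of one another, and no test of the differences was made.

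The replicates of SRSF3HKO did not order the genes alike. SRSF3HKO replicate 2 was the highest of its group for the first 5 genes of the series, Sqle, Lss, Cyp51, Tm7sf2 and Msmo1, and the lowest for the last 4, Nsdhl, Ebp, Sc5d and Dhcr7. For Cyp51 its difference from the WT mean was -2.42, against -3.89 and -3.38 in replicates 1 and 3, and for Sc5d -2.93 against -1.84 and -2.09, all in log2 units. Among all genes tested, replicate 2 was the highest of the 3 SRSF3HKO arrays in 37.1% and the lowest in 39.1%. The pattern was noticed after the values were seen and rests on 1 array, so it has no test. The median SD of a gene was 0.57 in SRSF3HKO and 0.21 in WT over the 9 genes, and 0.29 and 0.19 over all genes tested. Within WT, replicate 2 was the lowest array for 7 of the 9 genes. The median over genes lay at 0.06, -0.16 and -0.01 relative to the WT mean in replicates 1, 2 and 3. WT replicate 2 also had the lowest median intensity of all arrays, 75.3 against 85.9 in WT replicates 1 and 3. The share of all genes tested that were lowest on it was not counted, so whether this is particular to the enzymes is not known.

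**Figure D2:**
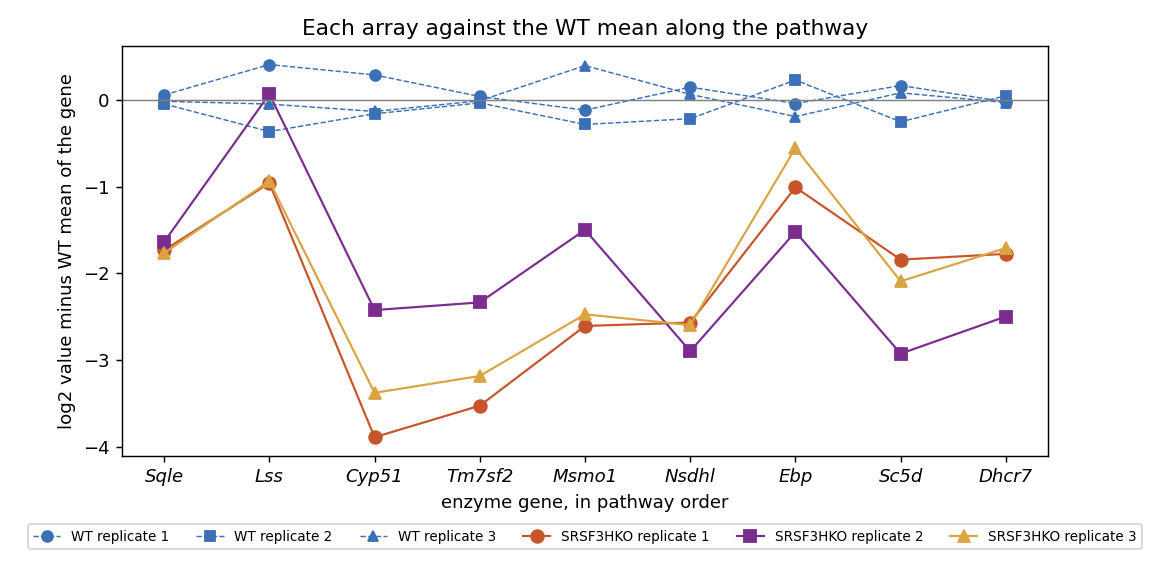
Level of each enzyme on each array minus the WT mean of that gene, in log2 units, along the pathway; dashed blue lines are WT and solid lines SRSF3HKO, with 1 symbol per replicate. SRSF3HKO replicate 2 (purple squares) lies above replicates 1 and 3 from Sqle to Msmo1 and below them from Nsdhl to Dhcr7.

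Relative to the WT mean, the median over the 9 genes was -1.84, -2.33 and -2.09 on SRSF3HKO arrays 1, 2 and 3. SRSF3HKO replicate 1, the array with the strongest macrophage signal, was the lowest of its group for 4 of the 9 genes, and without it the median change was -2.10, with 7 genes called lower. Among the arrays with Y-linked signal, 2 of WT and 1 of SRSF3HKO, the median difference was -2.05, and among the 1 WT and 2 SRSF3HKO arrays without it -2.45, with all 9 genes lower in both. After adjustment for that signal 7 genes were called lower, all but Lss and Ebp. The sum of hepatocyte markers differed in the same direction, without overlap only when Cyp2f2 was included. This sum was not used as a covariate, and its part in these falls was not tested. Leaving out any 1 array kept the calls of Sqle, Cyp51, Tm7sf2, Msmo1, Nsdhl, Sc5d and Dhcr7.

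Most probe sets of the 9 genes were lower in SRSF3HKO, those of Lss without passing the test. Of 112 probe sets 108 were bright enough to test, all 108 had a negative change, 80 were called lower and none was called higher, against 4.33% of 157289 probe sets called lower and 9.08% called in either direction. For 83 of the 108 the groups did not overlap, against 13.5% of all probe sets tested with every SRSF3HKO array below every WT array. Of the 28 that were not called, 23 belong to Lss and 3 to Ebp, and Nsdhl and Dhcr7 have 1 each. Probe sets of 1 gene share its transcript and are not replicates. The 4 dim probe sets, 3 of Tm7sf2 and 1 of Ebp, had lower means in SRSF3HKO. Their mean over the 6 arrays lay below the detection floor of 5.64, so they were not tested. Probe set 4630641 of Tm7sf2 was above that floor in WT, with a mean of 6.35, and below it in SRSF3HKO, at 4.57. For probe sets 4469061 of Tm7sf2 and 5450081 of Ebp the groups overlapped.

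**Figure D3:**
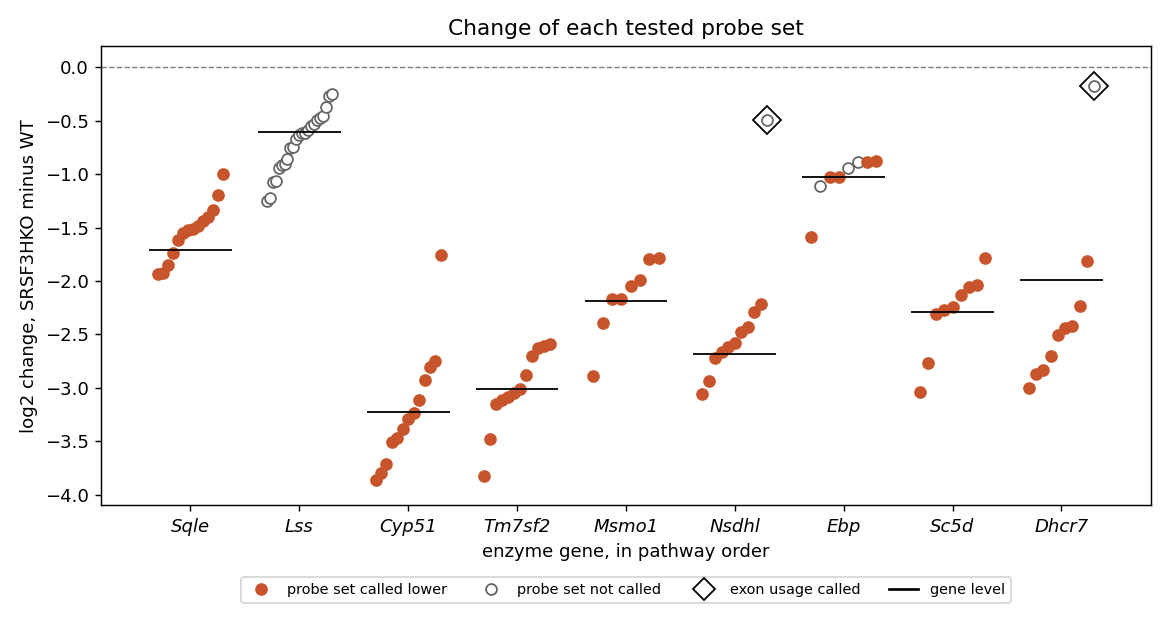
Change of each of the 108 tested probe sets, SRSF3HKO minus WT in log2 units, grouped by gene; filled points were called lower, open points were not called, and the horizontal line is the gene-level change. Diamonds mark the probe sets of Nsdhl and Dhcr7 whose change differed from that of their gene in limma's diffSplice.

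In Dhcr7 and Nsdhl a probe set each stayed behind. Probe set 4457331 of Dhcr7 had intensities of 1110, 1425 and 1375 in WT and of 1193, 1065 and 1183 in SRSF3HKO, so the groups overlapped. Its change was -0.18 ± 0.19 (limma adjusted p = 0.614), whereas the other 9 probe sets of the gene changed by -3.00 to -1.82. Against the rest of the Dhcr7 probe sets it was 2.36 log2 units higher in SRSF3HKO (limma diffSplice adjusted p = 1.48e-05). Probe set 5111725 of Nsdhl had intensities of 370, 301 and 439 in WT and of 167, 688 and 140 in SRSF3HKO. Here SRSF3HKO replicate 2 was above all WT arrays and the other replicates were below all of them. Against the rest of its gene it was 2.11 log2 units higher in SRSF3HKO (limma diffSplice adjusted p = 3.17e-04), but 1.23 without SRSF3HKO replicate 2 (limma diffSplice adjusted p = 0.00481).

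These were the 2 probe sets of 108 called for such a difference, beside 0.66% of 142355 probe sets over all genes. Neither was called by the second test, a splicing index per array (limma adjusted p = 0.0753 for Dhcr7 and 0.294 for Nsdhl), which called 0.0105% of all probe sets. Probe set 4882829 of Cyp51 fell less than its gene by 1.56 log2 units without passing (limma diffSplice adjusted p = 0.0742). The positions of probe sets within the transcripts were not analysed here, so these probe sets cannot be assigned to an exon. The median of the changes of the 10 Dhcr7 probe sets was -2.47, and with median polish over probe sets the gene-level change was -2.43, so the main value of -1.99 is the smaller estimate.

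**Figure D4:**
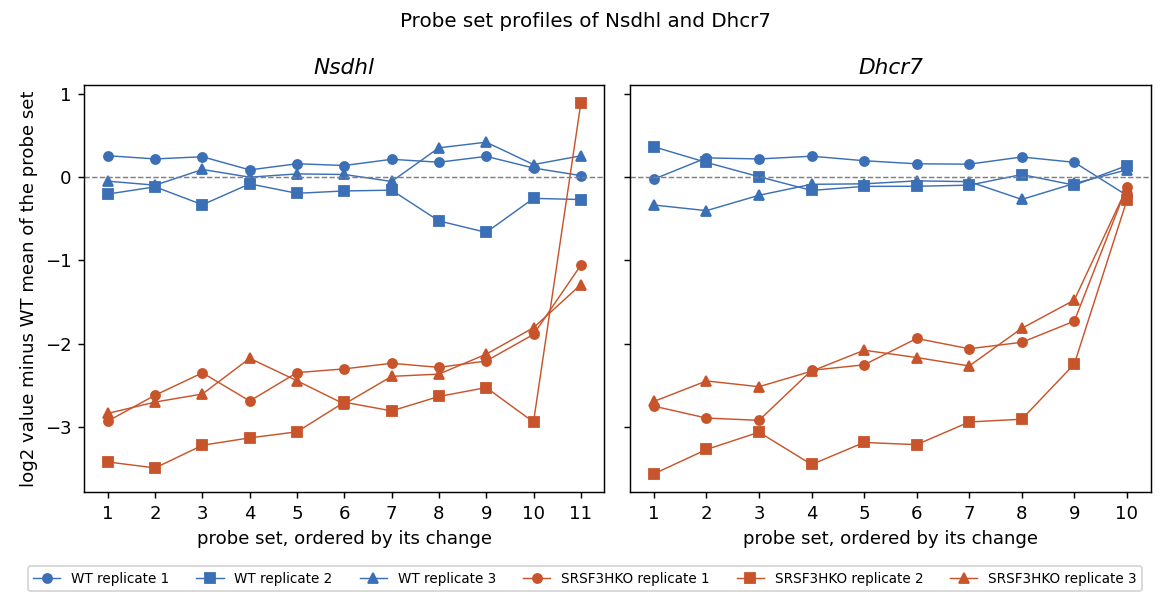
Value of each tested probe set of Nsdhl (left) and Dhcr7 (right) on each array minus the WT mean of that probe set, in log2 units, with probe sets ordered by their change along the horizontal axis. The last probe set of each gene departs from the others: on all 3 SRSF3HKO arrays in Dhcr7, and to above the WT mean on SRSF3HKO replicate 2 alone in Nsdhl.

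Promoter sequences, 250 bases before to 50 bases after the start of a RefSeq transcript, were available for 8 of the 9 genes (10 promoters, GRCm38.p6), all but Sqle. They are shown because these genes fell together, for the 3 genes with the largest falls and, in comparison, for Lss. Capitals mark the CCAAT box, the site known to bind NF-Y, and the GC box GGGCGG, known to bind SP1, each searched on both strands; both factors are known partners of SREBP2. Each line runs 5′ to 3′ on the strand of the gene. The promoters lie at chr5:4104648-4104947 on the minus strand for Cyp51, chr19:6067801-6068100 on the minus strand for Tm7sf2, chrX:72918271-72918570 on the plus strand for Nsdhl and chr10:76531355-76531654 on the plus strand for Lss.
Cyp51: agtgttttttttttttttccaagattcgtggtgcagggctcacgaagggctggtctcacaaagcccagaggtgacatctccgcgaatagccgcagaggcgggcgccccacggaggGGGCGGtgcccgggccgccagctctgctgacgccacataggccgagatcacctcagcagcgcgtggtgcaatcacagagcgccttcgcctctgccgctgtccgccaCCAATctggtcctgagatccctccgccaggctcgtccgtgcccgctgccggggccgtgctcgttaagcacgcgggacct
Tm7sf2: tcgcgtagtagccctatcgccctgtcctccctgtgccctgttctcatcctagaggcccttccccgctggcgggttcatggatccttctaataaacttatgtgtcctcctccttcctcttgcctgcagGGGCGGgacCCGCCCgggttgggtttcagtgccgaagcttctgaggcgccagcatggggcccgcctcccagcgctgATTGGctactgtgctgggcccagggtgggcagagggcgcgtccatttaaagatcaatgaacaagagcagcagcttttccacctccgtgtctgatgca
Nsdhl: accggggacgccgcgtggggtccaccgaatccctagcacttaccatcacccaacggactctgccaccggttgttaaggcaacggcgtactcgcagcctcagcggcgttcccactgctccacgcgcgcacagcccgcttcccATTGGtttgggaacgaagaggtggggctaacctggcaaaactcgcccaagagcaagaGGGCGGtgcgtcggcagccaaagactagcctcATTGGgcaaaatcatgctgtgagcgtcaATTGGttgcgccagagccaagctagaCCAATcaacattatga
Lss: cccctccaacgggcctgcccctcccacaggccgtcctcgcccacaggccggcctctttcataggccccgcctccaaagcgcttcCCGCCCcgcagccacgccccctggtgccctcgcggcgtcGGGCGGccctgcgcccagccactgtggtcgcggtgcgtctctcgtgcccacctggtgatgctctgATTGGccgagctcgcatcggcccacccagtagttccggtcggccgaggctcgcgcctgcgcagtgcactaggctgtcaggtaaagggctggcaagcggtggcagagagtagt

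All 8 genes held a CCAAT box and all 8 a GC box in at least 1 promoter, Lss included, whereas 42.6% and 65.9% of the 9391 tested genes with a promoter did. Of all 32851 promoters of this length, 37.4% held a CCAAT box and 35.7% a GC box. Nsdhl held 4 CCAAT boxes and Msmo1 3. A form of the sterol regulatory element, TCACNCCAC, was found in none of the 10 promoters and in 1.24% of all promoters, which says only that these letters are not in these windows. The ends of a CCAAT box and a GC box can overlap, and a match is a description of the sequence, not a bound site.

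The rest of the sterol pathway was read from a list of 47 genes, 40 of which were measured and tested. Of these 12 were called lower and 2 higher, with a median change of -0.32, beside 5.05% lower and 6.88% higher among all genes tested. The enzymes that lead up to squalene fell as a block, with all 7 tested members called lower and a median of -1.73. Among them Hmgcs1, which makes the precursor of mevalonate, changed by -2.93 ± 0.24, the isomerase gene Idi1 by -3.12 ± 0.24, and Fdft1, whose product makes squalene itself, by -1.84 ± 0.22. Mvk, Pmvk, Mvd and Fdps, which act between them, changed by -1.58, -1.56, -1.73 and -1.65. The calls of Mvd and Fdps ended without WT replicate 1 or 2, and that of Pmvk without WT replicate 1, 2 or 3, SRSF3HKO replicate 1 or with adjustment for the Y-linked signal.

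None of the 4 other late genes that were tested passed limma's test, and 2 of them, Lbr and Erg28, had an unadjusted p under 0.05. Hsd17b7, whose product completes the methyl removal begun by Msmo1 and Nsdhl, stood at 10.17, 9.79 and 9.90 log2 units on the WT arrays and at 8.86, 10.11 and 9.02 on the SRSF3HKO arrays. The change was -0.62 ± 0.33 (limma adjusted p = 0.254). As in Lss, SRSF3HKO replicate 2 lay within the range of WT, and without it Hsd17b7 was called lower at -1.01 (limma adjusted p = 0.00965). It was also called with array weights (-0.89, limma adjusted p = 0.0341). Lbr, a relative of Tm7sf2 with the same reductase activity, had a change of -0.64 ± 0.27 and Ebpl, a relative of Ebp without known isomerase activity, one of -0.14 ± 0.27, and neither passed (limma adjusted p = 0.166 and 0.772). Erg28, thought to hold the late enzymes together, was at -0.73 ± 0.25 (limma adjusted p = 0.0947).

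Among the electron donors, Cyb5b, a cytochrome b5, changed by -1.27 ± 0.18 and was called lower (limma adjusted p = 0.00586), though not without WT replicate 1 (limma adjusted p = 0.0504). Cyb5a, the form abundant in the endoplasmic reticulum of liver, changed by 0.17 ± 0.20, and Por, which passes electrons to Cyp51 and Sqle, had a change of 1.14 ± 0.33 that did not pass (limma adjusted p = 0.0586). Of 7 genes of SREBP processing, Insig1, which retains SREBP in the endoplasmic reticulum and is itself a known target of it, was the gene that passed. It stood at 11.92, 11.60 and 12.07 log2 units on the WT arrays and at 9.12, 11.06 and 10.09 on the SRSF3HKO arrays, and fell by 1.77 ± 0.43 (limma adjusted p = 0.0361). SRSF3HKO replicate 2 was again the highest of its group. The Insig1 call was lost when WT replicate 1, 2 or 3 or SRSF3HKO replicate 3 was left out (limma adjusted p = 0.127, 0.108, 0.119 and 0.0741), and also with median polish and after adjustment for the Y-linked signal (limma adjusted p = 0.0661 and 0.065). Srebf2 had a change of -0.12 ± 0.26 and Scap, the escort of SREBP, one of -0.77 ± 0.23 (limma adjusted p = 0.796 and 0.0645). Srebf1, the SREBP gene better known for fatty acid synthesis, had a change of -1.24 ± 0.40 without overlap between the groups, and did not pass either (limma adjusted p = 0.0795). Scap was called lower with quantile normalization, with array weights and without SRSF3HKO replicate 2 (limma adjusted p = 0.0442, 0.0128 and 0.0104).

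Genes that move, store or export sterol were mixed. Stard4, a carrier of sterol between membranes, changed by -1.12 ± 0.18 and was called lower, though not without WT replicate 1 (limma adjusted p = 0.0624). Also called lower were Lcat (-1.53 ± 0.22), which esterifies cholesterol in plasma, and Soat2 (-1.08 ± 0.23), which esterifies it in hepatocytes. The Soat2 call was lost when any 1 WT array (limma adjusted p = 0.107, 0.0861 and 0.0718) or SRSF3HKO replicate 3 was left out, and with median polish (limma adjusted p = 0.0555 and 0.0513). Npc2, a lysosomal sterol carrier, rose by 0.82 ± 0.19 and the canalicular sterol exporter Abcg5 by 0.83 ± 0.23 (limma adjusted p = 0.0318 and 0.0499). Abcg8, in the same list as Abcg5, had a change of 0.50 ± 0.25 with overlapping groups and did not pass (limma adjusted p = 0.231). The Npc2 and Abcg5 calls both ended with adjustment for the Y-linked signal and when any 1 WT array was left out. That of Npc2 also ended without SRSF3HKO replicate 1 or 3 (limma adjusted p = 0.0743 and 0.062), and that of Abcg5 in 14 of 18 alternatives. None of the 4 tested genes for turnover of pathway enzymes was called by limma, and 1, Ufd1, had an unadjusted p under 0.05.

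**Figure D5:**
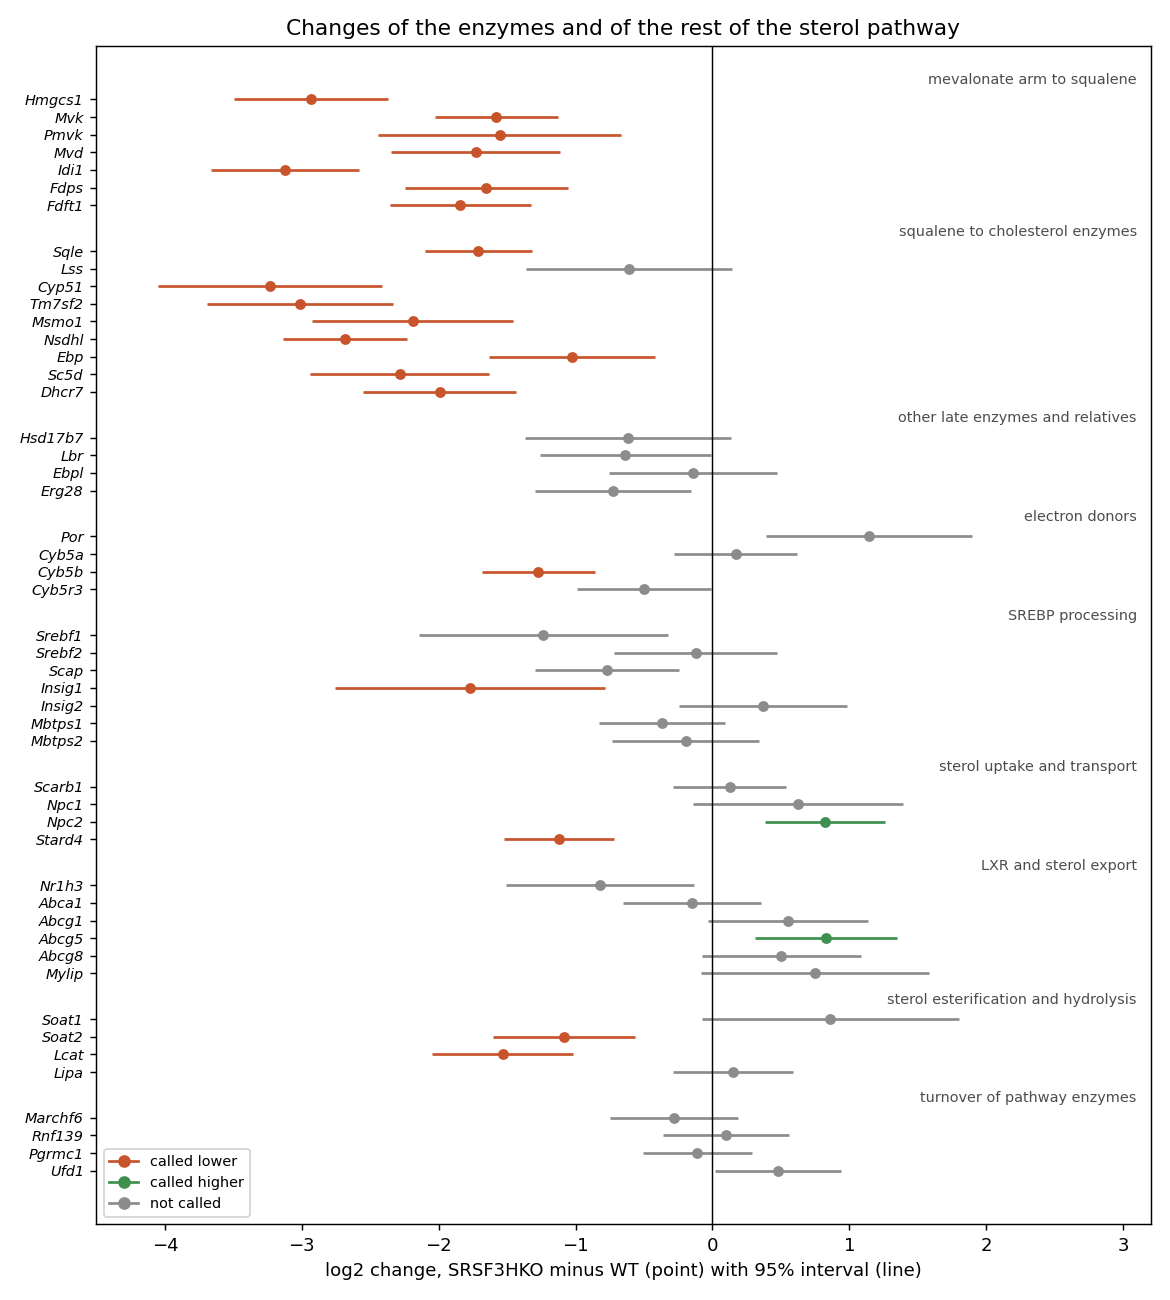
Change of each tested gene of the sterol pathway, SRSF3HKO minus WT in log2 units (points) with its 95% interval before adjustment for multiple tests (lines), grouped by role. Orange marks genes called lower, green genes called higher and grey genes not called. All 7 points of the mevalonate arm and all 9 of the squalene to cholesterol enzymes lie to the left of 0, and Lss is the uncalled gene among these 16.

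Outside these lists, the 5 genes whose levels over the 6 arrays were most like the median of the 9 genes were Fermt2, Mansc1, Cyp2c68, Casd1 and Abca8a, with Pearson's r of 0.998 to 0.993 among 11451 genes compared. The likeness is a description over 6 arrays that share a genotype difference, and 229 genes (2%) reached an r of at least 0.95. Their changes were -0.82 for the adhesion gene Fermt2, -0.73 for Mansc1, -2.12 for the cytochrome P450 gene Cyp2c68, -1.23 for Casd1 and -2.13 for the transporter gene Abca8a.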

How the data were processed

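The 3 SRSF3HKO and 3 WT arrays were assigned from the genotype label, and replicates were numbered in sample order, which pairs nothing. Per the submitters' processing notes and the labels, the authors ran PLIER in Affymetrix Expression Console on the core exons. The deposited values are linear intensities, and versions and the background step are not given in the sources used here. Of 229581 probe sets, 208397 name 1 gene in the annotation supplied; 3965 with several genes and 17219 with none entered only the test of single probe sets.

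Values were taken as log2(intensity + 16). Genes (median over probe sets) and probe sets were tested if their mean passed a floor (5.36 and 5.64), the 90th percentile over 1049 genes for taste, vomeronasal and olfactory receptors. Genotypes were compared with limma 3.58.1 (moderated test with a mean-variance trend, Benjamini-Hochberg adjustment) in R 4.3.3. Exon usage was tested with diffSplice in genes with at least 3 tested probe sets. Scripts were tested on simulated data. The 9 enzymes, the marker and pathway lists and the rule for named genes (all 9, called pathway genes, extreme probe sets and those called for exon usage, Srebf2, Scap, Insig1 and Hsd17b7 whether called or not, the 5 most alike genes) were chosen with earlier results of these data known. Srebf1, Lbr, Ebpl, Erg28, Por, Cyb5a, Abcg8 and Ufd1, and the cell type markers named, were added after their values were seen. The alternatives were 2 pseudocounts, 2 normalizations, 2 gene summaries, 2 filters, 3 variance models, a Y-linked covariate, the splicing index and leaving out each array. Protein sequences were not used here.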

Additional observations from a re-analysis of the deposited data

How the results depend on the processing

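Under 18 alternatives at gene level, the median change over the 9 enzymes stayed between -2.33 and -1.97, and 7 to 9 of them were called lower and none higher. Sqle, Cyp51, Tm7sf2, Msmo1, Nsdhl, Sc5d and Dhcr7 kept their call in all 18, Ebp lost it in 8, and Lss gained one in 2 (array weights and without SRSF3HKO replicate 2). The called probe sets numbered 64 to 94 over 16 alternatives. The 2 exon usage calls became 4 with no filter on low values and 0 with the splicing index, and 2 to 5 when each array was left out in turn; the 5 arose without SRSF3HKO replicate 2. The called genes among the rest of the pathway numbered 14, which became 5, 7 and 9 with WT replicate 1, 2 or 3 left out (5 to 16 over all left-out arrays). Over all genes, 589 lower and 803 higher calls became 130 and 113, 168 and 106, and 213 and 221 in the same order, 344 and 387 after adjustment for the Y-linked signal, 891 and 1267 with array weights, and 773 and 1383 without SRSF3HKO replicate 2. The change of Srebf2 turned to 0.0121 without SRSF3HKO replicate 1 and ranged from -0.38 to 0.0121, never past the threshold. No paired analysis was possible because the labels give no replicate numbers that the genotypes share. With 3 arrays per group, the SE of the 9 enzymes' changes was 0.17 to 0.36.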
